A study of Homo sapiens with 30 samples.

Results

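The data described here are the H3K4me3 profile of OCI-Ly1 cells, an established human line of diffuse large B-cell lymphoma, after JIB-04 at 500 nM, set against the solvent DMSO at 0.01%. H3K4me3 was measured by chromatin immunoprecipitation and sequencing (ChIP-seq) of fixed cells, with 2 libraries per group. The members are all consensus peaks of the mark on the autosomes and X, 21102 of the 21268 deposited peaks, and each carries a read count per library. Of the 21102 peaks, 20248 passed the filter on low counts and were tested, and 854 were not. The series holds 30 libraries of the same cell line, of which 6 are H3K4me3, since 2 further libraries received JIB-04 at 150 nM. These entered the same fit and are given beside the results. The cells are 1 cell line, and the labels used here name no treatment time and do not say whether replicates came from separate cultures. The p-values therefore measure only the spread between these libraries, which may be technical.

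H3K4me3 is trimethylation of lysine 4 of histone H3, and it marks the start sites of genes that are active or poised for transcription. It is deposited by the SET1 and MLL complexes and removed chiefly by the KDM5 demethylases, which belong to the Jumonji family of enzymes that need iron, oxygen and 2-oxoglutarate. JIB-04 is a small molecule that inhibits several Jumonji demethylases. In B cells, broad H3K4me3 domains lie over lineage genes such as PAX5, and narrow weak peaks lie over many CpG-rich promoters of silent genes.

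The libraries held 9686420 to 12327122 counts in H3K4me3 peaks. Levels are given as CPM, counts scaled to an equal library total, taken over the tested peaks and adjusted by TMM. A change shared by all peaks is therefore not measured. The markers of the labelled cell type carried the mark. The peak over PAX5, the transcription factor that defines the B lineage, held 489.9 and 473 CPM in DMSO, and that over CD79B, a subunit of the B-cell receptor, held 267 and 269 CPM. Peaks passed the filter at the ends of 8 of 21 T-cell and NK-cell markers, 3 of 21 myeloid and erythroid markers and 8 of 17 fibroblast and epithelial markers. Among those without a tested peak were CD3E, CD4, LYZ, MPO, GATA1, CDH1 and COL1A2, while EPCAM, an epithelial gene, held 69.0 and 71.7 CPM in DMSO. The pairs of 1 treatment differed by 1.12 times counting noise in DMSO and 1.18 times at 500 nM, as chi-square per degree of freedom. A library with DMSO and one with 500 nM differed by 7.61 to 8.71 on the same measure.

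Promoter sequences of 6 genes whose H3K4me3 changed are shown because 3 regulatory elements are written in them. Each run is the 150 bases before the start site, 5′ to 3′ on the gene's own strand, from RefSeq on GRCh38.p14. Capitals mark the letters ACGTG on either strand, the core of the element bound by hypoxia-inducible factors, in 3 promoters of the hypoxia list. The span is chr9:35673778-35673927 on the plus strand for CA9, chr10:131981924-131982073 on the minus strand for BNIP3 and chr11:18394413-18394562 on the plus strand for LDHA.
CA9: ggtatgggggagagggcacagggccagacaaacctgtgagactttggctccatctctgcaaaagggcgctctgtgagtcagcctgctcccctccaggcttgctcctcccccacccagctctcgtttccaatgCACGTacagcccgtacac
BNIP3: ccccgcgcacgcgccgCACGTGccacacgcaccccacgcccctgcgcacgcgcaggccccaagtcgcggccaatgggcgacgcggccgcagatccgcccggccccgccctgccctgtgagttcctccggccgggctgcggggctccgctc
LDHA: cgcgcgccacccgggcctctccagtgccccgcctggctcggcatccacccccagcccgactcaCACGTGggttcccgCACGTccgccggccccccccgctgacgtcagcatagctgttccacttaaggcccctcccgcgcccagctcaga
In BNIP3 and LDHA the letters CACGTG hold the core on both strands, so these matches overlap. The core occurred in the 300-base promoters, 250 bases before and 50 after the start, of 15 of 33 genes of the hypoxia and glycolysis list (45.5%) and of 21.6% of all 27195 promoters. In the next run, ASNS at chr7:97872409-97872558 on the minus strand, capitals mark TGATGNAAN, the amino acid response element, where N is any base.
ASNS: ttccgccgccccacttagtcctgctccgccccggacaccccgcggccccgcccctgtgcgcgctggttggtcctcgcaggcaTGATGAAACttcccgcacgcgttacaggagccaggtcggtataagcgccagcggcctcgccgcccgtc
That element was found in 7 of 27 promoters of the integrated stress response list (25.9%) and in 3.67% of all. In the metallothionein genes MT2A at chr16:56608434-56608583 and MT1X at chr16:56682320-56682469, on the plus strand, capitals mark TGCNCNC, the core of the metal response element, on either strand.
MT2A: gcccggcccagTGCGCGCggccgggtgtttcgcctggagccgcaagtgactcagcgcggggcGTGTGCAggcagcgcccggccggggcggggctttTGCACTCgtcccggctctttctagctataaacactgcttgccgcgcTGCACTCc
MT1X: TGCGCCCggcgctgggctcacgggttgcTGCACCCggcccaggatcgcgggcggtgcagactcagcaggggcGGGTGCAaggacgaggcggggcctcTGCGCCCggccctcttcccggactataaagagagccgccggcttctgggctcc
The metal core is short and common, in 13 of 20 promoters of the metal and iron list (65.0%) and in 55.2% of all. TCACNCCAC, a form of the sterol element, was in 1 of 20 promoters of the cholesterol list and in 1.15% of all. A match is a description of the letters and not a measured site.

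At 500 nM peaks were called in both directions, on levels that are relative to the library total. Of the 20248 tested peaks 4175 were higher than in DMSO and 3805 lower at an adjusted p under 0.05, by edgeR's quasi-likelihood test with Benjamini-Hochberg adjustment. Over all 20402 tested peaks, contigs included, 39.4% were called, 20.7% higher and 18.7% lower. With the total count in peaks as the scaling the split was 4726 higher and 2780 lower. Among called peaks the rises were the larger in size, with a median of 0.74 on the log2 scale against 0.22 for the falls. Of these, 1524 rises and 398 falls reached 1. The called rises lay at weaker peaks, where a larger change is needed for a call, so the medians depend in part on the threshold. The 500 nM libraries lay outside the range of the DMSO libraries at 4156 of the higher (99.5%) and 3777 of the lower peaks (99.3%). A called peak seldom lacks this separation, so it describes the calls and adds no support to them. The share over all tested peaks was not counted. At 150 nM edgeR called no peak against DMSO, with 940 at an unadjusted p under 0.05. DESeq2 at 500 nM called 3398 peaks, 1908 higher and 1490 lower.

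The higher and the lower peaks were of different kinds. Higher peaks were short and weak, with a median length of 1146 bp and a median level of 9.26 CPM, whereas lower peaks had medians of 2490 bp and 71.1 CPM, and peaks not called 1613 bp and 36.6 CPM. In 710 of the higher peaks a DMSO library was under the filter, so these passed through the group where they are high. The same slope was seen among 9044 peaks over annotated start sites. Of 5 groups of equal size by level, in the lowest 50.5% were higher and 6.47% lower, and in the highest 4.09% were higher and 36.9% lower. Within the group of lowest level, promoters under a higher peak had a median GC content of 68.0%. There it was 55.7% under the 117 lower peaks and 60.7% under peaks not called. Over all 9044 peaks the difference was smaller, with 68.7% for higher, 65.7% for lower and 65.0% for peaks not called. In the group of highest level these medians were 69.5%, 67.7% and 66.3%. Of 17642 genes with a tested peak within 1000 bp of either end, 3130 were higher (17.7%) and 3850 lower (21.8%), with a median of −0.029 over all of them. With total-count scaling 3746 genes were higher and 2501 lower, and with loess offsets, which remove the mean trend with level, 3487 and 2183. DESeq2 called 1665 genes higher and 1261 lower. These end peaks are 12214 distinct peaks, since 9985 genes share theirs with a neighbour. Of the 12906 with a known start site, 11644 lay within 1000 bp of it. Below, a gene's value is that of its end peak of highest level, and list counts with TMM stand beside the shares of 17.7% and 21.8%. List counts of another fit stand beside that fit's own counts over all genes.

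**Figure D1:**
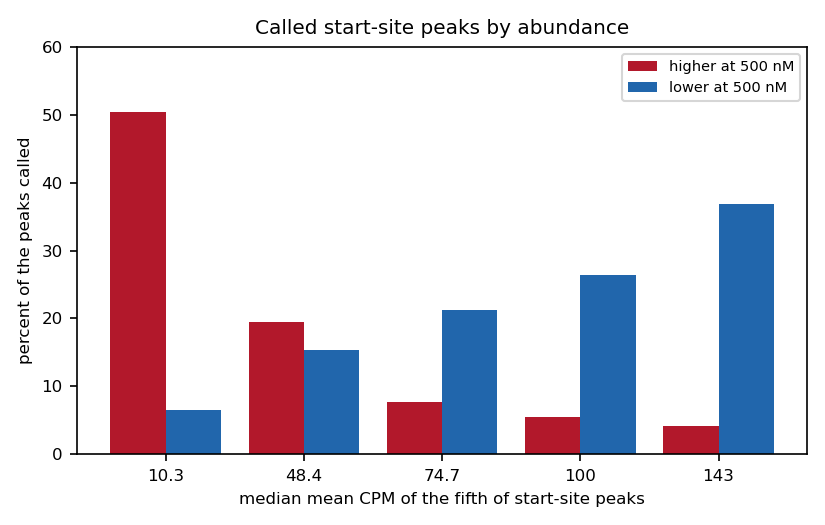
Percent of start-site peaks called higher (red) or lower (blue) at 500 nM against DMSO, in 5 groups of equal size by mean level, with the median CPM of each group on the x axis. The share called higher falls from 50.5% to 4.09% and the share called lower rises from 6.47% to 36.9%.

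Among protein-coding genes with above-median levels, the largest rise under the naming rule was at SH3BP2, which encodes an adaptor of SYK and BCR signalling. Its start peak at chr4:2792719-2795125 held 13.1 and 12.2 CPM in DMSO, 14.9 and 13.5 with 150 nM and 72.4 and 74.0 with 500 nM. The log2 change of 2.52 (SE 0.075, edgeR adjusted p = 1.93e-35) was joined by one of 1.06 in H3K27ac, the acetylation mark of active promoters and enhancers, at the same place (edgeR adjusted p = 0.000692). CHMP4C, an ESCRT-III subunit of membrane scission, rose from 21.9 and 22.2 CPM to 68.3 and 69.8 CPM (log2 change 1.65, SE 0.066, edgeR adjusted p = 4.37e-29). Here too H3K27ac was higher, by 0.92 (edgeR adjusted p = 0.000457). DUSP6, the phosphatase that dampens ERK, held 21.7 and 20.8 CPM in DMSO and 57.6 and 55.6 CPM at 500 nM, a log2 change of 1.41 (SE 0.071, edgeR adjusted p = 1.64e-24). Other rises under the rule lay between 0.99 and 1.23: MDGA1 and HUNK, a cell adhesion protein and a kinase, FERMT2, an integrin activator, FAM43A, SLC4A11, a membrane transporter, ADM2, a peptide hormone of the adrenomedullin family, CIBAR1 and CHRM4, a muscarinic receptor. In each of these genes the 500 nM libraries lay above all DMSO and 150 nM libraries. The naming rule itself required the separation from DMSO.

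The largest fall by the same rule was at FCRL2, an Fc receptor-like protein of B cells. Its start peak at chr1:157773887-157777395 held 48.0 and 44.1 CPM in DMSO, 43.3 and 45.8 with 150 nM and 22.02 and 17.4 with 500 nM, a log2 change of −1.22 (SE 0.080, edgeR adjusted p = 1.81e-19). CEACAM1, an inhibitory adhesion receptor, went from 61.0 and 50.9 to 28.7 and 22.7 CPM, a change of −1.12 (SE 0.079, edgeR adjusted p = 2.68e-18). ADM, the vasodilator peptide adrenomedullin and a known hypoxia target, shares its peak at chr11:10302467-10310981 with an end of SBF2. That peak held 287 and 283 CPM in DMSO and 139 and 127 CPM at 500 nM, a change of −1.10 (SE 0.035, edgeR adjusted p = 5.7e-34). The remaining falls were PBXIP1 and PMVK with 1 shared peak at −1.17, ZNF395 at −1.08, NXPH4 at −1.08, TNIP1 at −1.03, KDM4B at −0.88, LSP1 at −0.86 and ZC3H12D at −0.85. LSP1 is a leukocyte actin-binding protein, TNIP1 an NF-kB inhibitor and ZC3H12D an RNase of lymphocytes. The peaks of PBXIP1, PMVK and TNIP1 are not at the annotated starts. No start site was known here for ZNF395, NXPH4, LSP1 and ZC3H12D, nor for CHMP4C, SLC4A11 and CIBAR1 among the rises. For these genes the peak may lie at either end. PMVK's own start peak had a log2 change of −0.0012 and PBXIP1's −0.33.

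**Figure D2:**
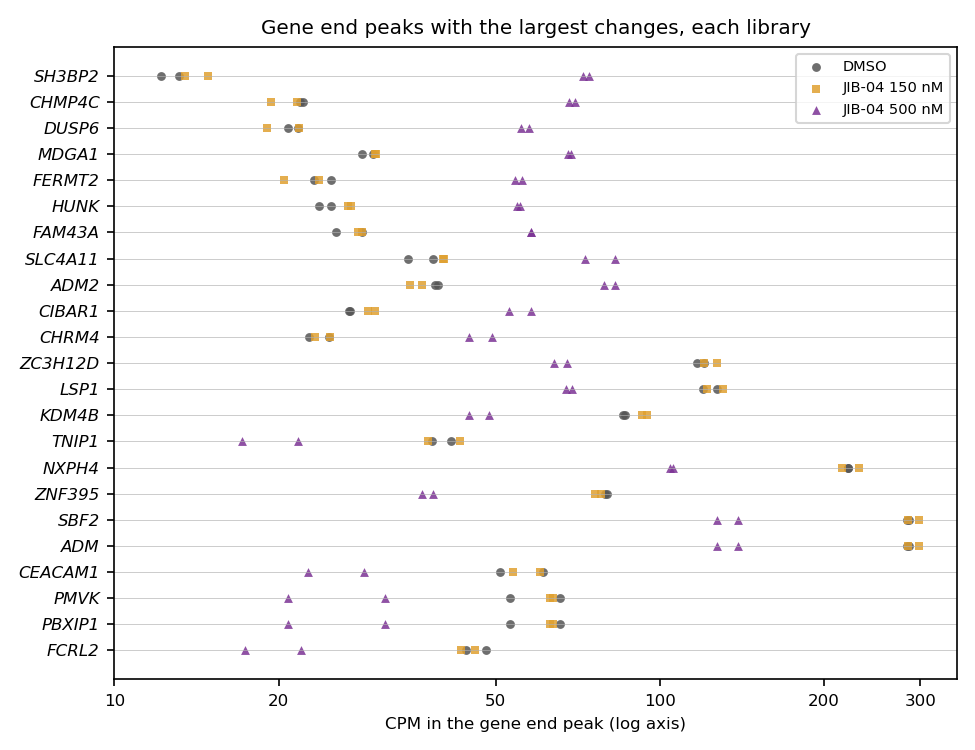
CPM (log axis) of the gene end peaks with the largest changes, 1 point per library, for the protein-coding genes given under the naming rule. At SH3BP2 the 500 nM libraries lie at 72.4 and 74.0 against 13.1 and 12.2 in DMSO. In every row both 500 nM points lie apart from the other 4. The naming rule itself required the separation from DMSO.

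Genes of the hypoxia response and glycolysis had the lowest median of the 34 lists by end peak, and most of its members fell. The 6 Fc receptor-like genes were lower by start peaks (median −0.43 against −0.36) and under loess offsets (−0.28 against −0.22). Of 33 genes with a tested end peak 25 were lower and 3 higher, with a median of −0.29 (all genes −0.029), and of the 31 with a peak at the start 28 were lower and 1 higher. CA9, the carbonic anhydrase used as a hypoxia marker, had a start peak at chr9:35673452-35676310 with 28.8 and 28.3 CPM in DMSO, 36.0 and 29.6 with 150 nM and 11.5 and 10.4 with 500 nM (log2 change −1.38, SE 0.11, edgeR adjusted p = 1.11e-16). BNIP3, a mitophagy receptor, stood at 136 and 138 CPM in DMSO and 86.5 and 89.2 CPM at 500 nM (log2 change −0.64, SE 0.041, edgeR adjusted p = 3.61e-20). In both, and in ADM above, the 500 nM libraries lay below all other libraries.

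Glycolytic enzymes fell from PGAM1 at −0.62 and PGK1, phosphoglycerate kinase, at −0.57 through PKM, pyruvate kinase, at −0.50 and GAPDH at −0.36 to LDHA, lactate dehydrogenase, at −0.29. At PGK1 the levels were 87.0 and 83.3 CPM in DMSO and 57.5 and 57.8 CPM at 500 nM, and at GAPDH 253 and 257 CPM in DMSO against 198 and 201 at 500 nM. SLC2A1, the glucose transporter GLUT1, had a change of −0.43, EGLN1, the oxygen sensor that hydroxylates HIF-1α, of −0.48, and VEGFA, the angiogenic growth factor, of −0.37. HIF1A itself was lower by a small amount, −0.10 (edgeR adjusted p = 0.0178). The 3 higher members were NDRG1, a hypoxia-induced gene, at 1.66, EPAS1, which encodes HIF-2α, at 0.57, and GPI at 0.45, whose peak is 4663 bp from the start. NDRG1 and EPAS1 had weak peaks, with 6.04 and 5.99 CPM in DMSO at the former, and 21.0 and 23.8 at the latter. The median H3K27ac change over the list was −0.12, against 0.079 over the 15265 genes with both marks, and 1 of its H3K27ac peaks was called, that at GPI, which was lower. H3K27ac calls over all peaks were 0.923% of 54037, with larger counting error. The lower count of H3K4me3 stayed between 22 and 24 under total-count, loess and DESeq2 fits.

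Genes of cholesterol synthesis and uptake went the same way. Of 24 genes 18 were lower and 1 was higher, with a median of −0.23, and of 20 start peaks 13 were lower and 1 higher. MSMO1, the sterol C4-methyl oxidase, held 126 and 121 CPM in DMSO and 85.7 and 83.3 CPM at 500 nM (log2 change −0.55, SE 0.042, edgeR adjusted p = 8.89e-17). HMGCS1, HMG-CoA synthase, held 110.3 and 109 CPM in DMSO against 80.0 and 80.9 at 500 nM (log2 change −0.45, SE 0.043, edgeR adjusted p = 3.48e-13). SQLE, squalene epoxidase, changed by −0.27. At all 3 the 500 nM libraries lay below the DMSO libraries. Of the factors that drive the pathway, SREBF1 was higher at 0.15, a call lost with DESeq2 and without DMSO replicate 1 or 500 nM replicate 2, and SREBF2 was not called at 0.018 (SE 0.037).

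Genes of the integrated stress response, in which phosphorylated eIF2α favours translation of ATF4, moved mostly upward. Of 29 genes 16 were higher and 2 lower, with a median of 0.15, and of 25 start peaks 17 were higher and 1 lower. CHAC1, a glutathione-degrading enzyme and ATF4 target, had a start peak at chr15:40952160-40956625 with 106 and 112 CPM in DMSO, 104 and 107 with 150 nM and 166 and 169.6 with 500 nM. Its log2 change was 0.62 (SE 0.038, edgeR adjusted p = 5.7e-21). PPP1R15A, the phosphatase subunit GADD34, held 77.6 and 73.6 CPM in DMSO against 110.1 and 119 at 500 nM (log2 change 0.59, SE 0.045, edgeR adjusted p = 6.58e-17). DDIT3, which encodes the factor CHOP, held 74.1 and 72.1 CPM in DMSO against 95.6 and 98.9 at 500 nM (log2 change 0.41, SE 0.045, edgeR adjusted p = 5.09e-11). At all 3 genes the 500 nM libraries were above every other library. A neighbouring peak over DDIT3, at chr12:57520870-57524864, picked after values were seen, changed by −0.19, a call lost with DESeq2 and without 500 nM replicate 2 (−0.11).

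The transcription factor CEBPB rose by 0.50, the tryptophanyl-tRNA synthetase WARS1 by 0.50, the stress sensor SESN2 by 0.37 and the serine synthesis enzyme PSAT1 by 0.25. H3K27ac was higher as well at CHAC1 (0.54), PPP1R15A (0.39), CEBPB (0.53), WARS1 (0.68) and PSAT1 (0.51), which were all the H3K27ac calls in this list. ATF4 itself was not called, with 210.3 and 213 CPM in DMSO against 199.5 and 204 at 500 nM and a change of −0.068 (SE 0.031), nor was ATF5 at 0.0062. The lower members were SHMT2, a mitochondrial serine hydroxymethyltransferase, at −0.48 and DDIT4, an mTOR inhibitor that hypoxia also induces, at −0.28. For ASNS, asparagine synthetase, whose promoter is printed above, the start peak changed by 0.15 (SE 0.046, edgeR adjusted p = 0.00879), a call lost with DESeq2, without DMSO replicate 1 (0.097) and without 500 nM replicate 2 (0.094). The weak peak at its far end rose from 4.65 and 3.54 to 10.2 and 10.2 CPM. TRIB3, a pseudokinase target of CHOP, rose by 0.22, a call lost with DESeq2 and without DMSO replicate 1. DESeq2 called 10 members higher and 2 lower.

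**Figure D3:**
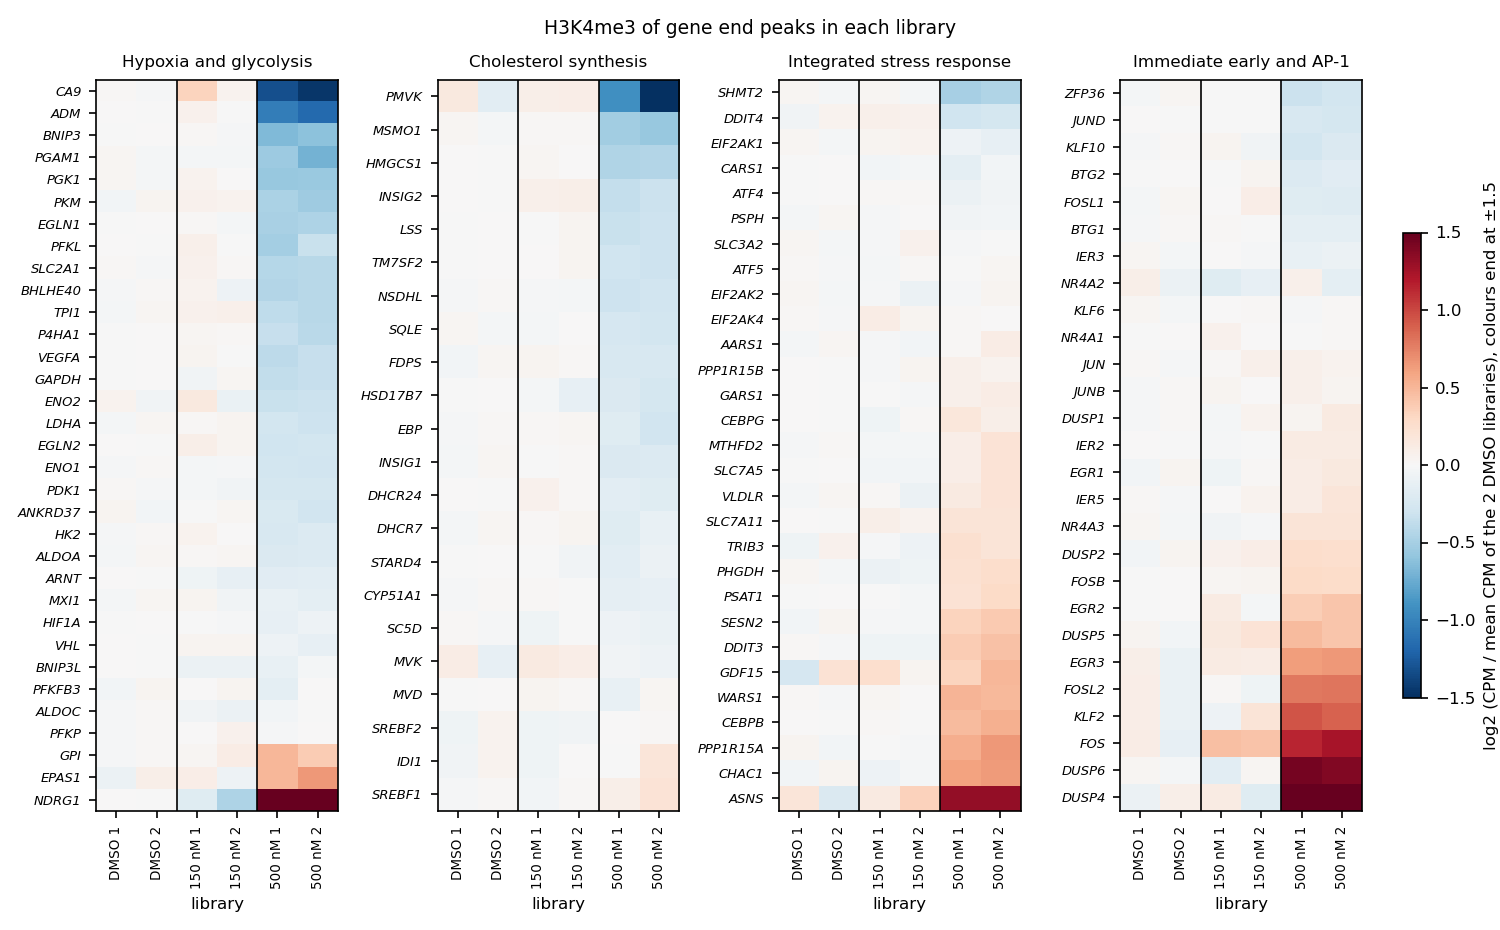
H3K4me3 of each gene end peak as log2 of its CPM over the mean of the DMSO libraries, in all 6 libraries, for genes of 4 lists. Blue is lower and red higher, with colours ending at 1.5 in either direction, and genes are ordered by the change at 500 nM. The 500 nM columns are blue for most hypoxia and cholesterol genes and red for the lower rows of the other lists, while the 150 nM columns are mostly near white, FOS being an exception.

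In the unfolded protein response, the pathway of misfolded protein in the endoplasmic reticulum, 5 of 29 genes were higher and 3 lower, with a median of −0.021. Under loess offsets 6 were higher and 1 lower (median 0.036), and with total-count scaling 7 and 2 (0.014). XBP1, its central transcription factor, held 37.9 and 36.3 CPM in DMSO and 55.4 and 55.4 CPM at 500 nM (log2 change 0.57, SE 0.061, edgeR adjusted p = 1.25e-11). ERN1, the sensor IRE1α that splices XBP1 mRNA, held 59.1 and 66.3 CPM in DMSO against 81.6 and 87.5 at 500 nM (log2 change 0.43, SE 0.051, edgeR adjusted p = 3.34e-10), and HERPUD1, a degradation factor, rose by 0.28. The groups did not overlap at these 3 genes. The chaperone HSPA5 was not called at 0.083 (SE 0.037).

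Of the metal and iron list 5 of 21 genes were higher and 2 lower, with a median of −0.010. Under loess offsets 5 and 1 were called (median 0.042), and with total-count scaling 7 and 2 (0.024). The metallothioneins, small metal-binding proteins, were among the rises. MT2A held 29.2 and 27.5 CPM in DMSO and 46.3 and 43.4 CPM at 500 nM (log2 change 0.66, SE 0.071, edgeR adjusted p = 1.62e-11), and MT1X held 31.6 and 30.5 CPM in DMSO against 44.3 and 46.9 at 500 nM (log2 change 0.55, SE 0.068, edgeR adjusted p = 1.15e-09). STEAP3, a ferrireductase, rose by 1.30 from a weak peak, and the transferrin receptor TFRC was not called at −0.078 (SE 0.035). In the oxidative stress list 2 of 29 were higher and 4 lower, whereas under loess offsets 6 were higher and 3 lower and with total-count scaling 4 and 3. NFE2L1 (0.042), NFE2L2 (−0.057) and HMOX1 (−0.063), the heme oxygenase, were not called at their end peaks, with SE of 0.037, 0.035 and 0.077. A second peak inside NFE2L1, a factor of proteasome gene expression, at chr17:48054442-48057283 was picked after values were seen. It held 18.5 and 16.6 CPM in DMSO, 18.4 and 14.6 with 150 nM and 45.8 and 40.1 with 500 nM (log2 change 1.29, SE 0.087, edgeR adjusted p = 4.8e-19), and its 500 nM libraries were above all others. In the heat shock list 3 of 20 were higher and 2 lower. Under loess offsets 6 and 0 were called, and DESeq2 called none.

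In the p53 list 8 of 27 were higher and 5 lower, with a median of 0.0090. The balance moved with the fit, to 13 higher and 1 lower under loess offsets (median 0.093), 10 and 3 with total-count scaling and 5 and 1 with DESeq2. In 2 of the 27 a DMSO library was under the filter. Its best-known target, CDKN1A, the cell cycle inhibitor p21, has no tested peak within 1000 bp of an end and was looked up after values were seen. Its 1 peak, at chr6:36678354-36681213 inside the gene, held 58.5 and 59.0 CPM in DMSO, 65.5 and 59.5 with 150 nM and 124 and 127 with 500 nM (log2 change 1.09, SE 0.046, edgeR adjusted p = 4.75e-28). The p53 ligase MDM2 was not called at 0.10 (SE 0.044). ATF3, a stress factor looked up in the same way, had its strongest peak at chr1:212606855-212610111, with 72.8 and 74.4 CPM in DMSO against 108 and 109.6 at 500 nM (log2 change 0.56, SE 0.046, edgeR adjusted p = 1.48e-15). At CDKN1A and ATF3 both 500 nM libraries were above the others.

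Immediate early genes, which growth signals induce within minutes, were higher in 14 of 27 and lower in 7, with a median of 0.12. The falls are near the 21.8% of all genes, and the rises above their 17.7%. FOS held 13.6 and 11.5 CPM in DMSO, 17.1 and 16.8 with 150 nM and 27.7 and 29.4 with 500 nM (log2 change 1.18, SE 0.10, edgeR adjusted p = 7.94e-15). The FOS-related FOSL2 held 72.9 and 63.4 CPM in DMSO against 118 and 119 at 500 nM (log2 change 0.79, SE 0.047, edgeR adjusted p = 2.64e-21). KLF2, a quiescence factor of lymphocytes, rose by 0.91 and DUSP4, a phosphatase like DUSP6, by 1.66, each from a weak peak. JUN was not called at 0.061 (SE 0.041), and JUND (−0.25) and ZFP36 (−0.30), an mRNA decay factor, were lower. At FOS and FOSL2 both 500 nM libraries were above the others, and at FOS the 150 nM libraries were above DMSO, a difference edgeR did not call.

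In the lists of germinal centre factors, receptor signalling and NF-kB the falls outnumbered the rises, and most were small. Among the transcription factors of germinal centre B cells 13 of 26 were lower and 4 higher, with a median of −0.083, and of 19 start peaks 12 were lower and 2 higher. Under the loess offsets 7 were lower and 4 higher. The end peaks of this list had a high median level, 155 CPM. In the highest group of start-site peaks, with a median of 143 CPM, 36.9% were lower and 4.09% higher. BCL6, the repressor that defines the germinal centre, held 371 and 362 CPM in DMSO and 335 and 317 CPM at 500 nM (log2 change −0.17, SE 0.029, edgeR adjusted p = 2.78e-06). PAX5 changed by −0.13 (SE 0.027, edgeR adjusted p = 0.000137), a call lost under the loess offsets. NFATC1, a calcium-dependent factor, went from 355 and 337 to 271 and 269 CPM (log2 change −0.36) and SPIB, an ETS factor whose peak an end of POLD1 shares, from 105 and 111 to 84.3 and 83.8 CPM (log2 change −0.36).

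EBF1 (−0.067, SE 0.029) and BACH2 (0.0097, SE 0.032), factors of early and of germinal centre B cells, were not called at their end peaks. Inner peaks of both, picked after values were seen, were called. In EBF1 the peak at chr5:159051449-159053475 went from 22.3 and 18.2 to 14.5 and 10.7 CPM (log2 change −0.67, SE 0.12, edgeR adjusted p = 3.92e-06). Weak peaks in EBF1 (0.84) and BACH2 (0.55) were higher, calls lost with DESeq2, under loess offsets and without DMSO replicate 2 or 500 nM replicate 1, and for EBF1 also without DMSO replicate 1. IRF8 was higher at its start, with 154 and 148 CPM in DMSO against 180.3 and 178 at 500 nM (log2 change 0.25, SE 0.034, edgeR adjusted p = 2.32e-08). A second peak inside IRF8 at chr16:85908589-85912394, picked after values were seen, went the other way, from 48.5 and 43.7 to 19.9 and 18.1 CPM (log2 change −1.28, SE 0.078, edgeR adjusted p = 4.99e-21). At both IRF8 peaks the groups did not overlap. LMO2 rose by 2.49 at a weak end peak of 1.31 and 0.884 CPM in DMSO, and MEF2C fell by 1.43 at one of 3.92 and 2.75 CPM, 19873 bp from its start. The start peak of MEF2C changed by −0.12.

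In the list of B-cell receptor signalling 18 of 36 genes were lower and 5 higher, with a median of −0.087. DESeq2 called 6 genes lower and 5 higher, against 1261 lower and 1665 higher over all genes. CD79B held 267 and 269 CPM in DMSO and 207 and 216 CPM at 500 nM (log2 change −0.34, SE 0.030, edgeR adjusted p = 2.13e-14). CD40, the receptor of T-cell help, held 59.1 and 55.1 CPM in DMSO against 40.5 and 37.9 at 500 nM (log2 change −0.54, SE 0.061, edgeR adjusted p = 5.84e-11). PLCG2, the phospholipase below BTK, changed by −0.41 and the adaptor DAPP1 by −0.36. At these 4 genes the 500 nM libraries lay below the DMSO libraries. The start peak of CD79A changed by −0.18 (SE 0.040, edgeR adjusted p = 0.000196). Its end peak of highest level, 5033 bp from the start, was not called at 0.062 (SE 0.039). CD22 changed by −0.18, a call lost with DESeq2. MS4A1, which encodes CD20, was not called at 0.016 (SE 0.042). The rises other than SH3BP2 were CR2, the complement receptor, at 1.22, NFATC2 at 0.98, VAV2 at 0.46 and FYN at 0.29.

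Of the Fc receptor-like genes 3 of 6 were lower, and FCRL3 fell beside FCRL2, from 62.4 and 57.2 to 39.7 and 36.1 CPM (log2 change −0.66, SE 0.062, edgeR adjusted p = 1.56e-13). In the MHC class I list 3 of 19 were higher and 2 lower. In the MHC class II list 3 of 10 were lower and 1 higher. CD74, the invariant chain, was not called at −0.097 (SE 0.042). CIITA, the class II transactivator, was not called at its end peak, and its strongest inner peak changed by −0.11 (SE 0.036, edgeR adjusted p = 0.00918), a call lost in 5 of the other fits. Another inner peak of CIITA, at chr16:10886273-10888839, picked after values were seen, went from 40.5 and 32.9 to 28.3 and 21.96 CPM (log2 change −0.54, SE 0.086, edgeR adjusted p = 5.83e-07). Of the NF-kB list 12 of 23 were lower and none higher, with a median of −0.092, with 3 lower by DESeq2 and 8 under loess offsets. BIRC3, an inhibitor of apoptosis, held 215 and 212 CPM in DMSO against 192 and 186 at 500 nM (log2 change −0.17), while NFKBIA, which encodes IκBα, was not called at −0.011 (SE 0.044). In the BCL2 family 2 of 18 were higher and 5 lower. HRK, a BH3-only protein, rose by 0.40, MCL1 was not called at −0.016 (SE 0.030), and the end peak of BCL2, the apoptosis inhibitor, at −0.076, lost its call in 7 of the other fits. Under loess offsets 5 of the family were higher and 2 lower, with total-count scaling 3 and 3, and with DESeq2 2 and 1. Inside BCL2, 3 further peaks, picked after values were seen, fell in every fit. The one at chr18:63149991-63159421 held 185 and 174 CPM in DMSO and 125 and 114 at 500 nM (log2 change −0.59, SE 0.040, edgeR adjusted p = 7.48e-19). The others changed by −0.51 (SE 0.044) and −0.89 (SE 0.062), and at all 3 the 500 nM libraries lay below every other library. A weak inner peak of BCL2 at chr18:63208478-63210361 went the other way. It held 8.49 and 9.72 CPM in DMSO and 13.4 and 10.8 CPM at 500 nM (log2 change 0.43, SE 0.14, edgeR adjusted p = 0.0134). MYC was not called at −0.038 (SE 0.029).

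Plasma cell genes held rises above the 17.7% of all genes and falls near the 21.8% of all genes. Of 16 genes 7 were higher and 4 lower, with a median of 0.094, and of 13 start peaks 4 were higher and 4 lower. SDC1, the plasma cell surface proteoglycan CD138, rose from 3.02 and 2.55 CPM in DMSO to 15.2 and 19.1 CPM at 500 nM (log2 change 2.59, SE 0.18, edgeR adjusted p = 1.26e-18). TNFRSF17, the receptor BCMA, rose from 58.3 and 55.7 to 87.3 and 83.3 CPM (log2 change 0.58, SE 0.050, edgeR adjusted p = 5.94e-15). IRF4, a factor of plasma cell fate, changed by 0.15, from 247 and 255 to 269.7 and 290.3 CPM. At these 3 genes the 500 nM libraries were above the DMSO libraries. PRDM1, which encodes BLIMP1, had an end peak at 0.30 that lies 93258 bp from the start, a call lost with DESeq2, and its start peak was not called at 0.11. TNFRSF13B, the receptor TACI, fell by 0.36 and CD27, a memory marker, by 0.24. The summed level of the list's peaks was 1268 and 1259 CPM in DMSO and 1315 and 1324 at 500 nM.

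**Figure D4:**
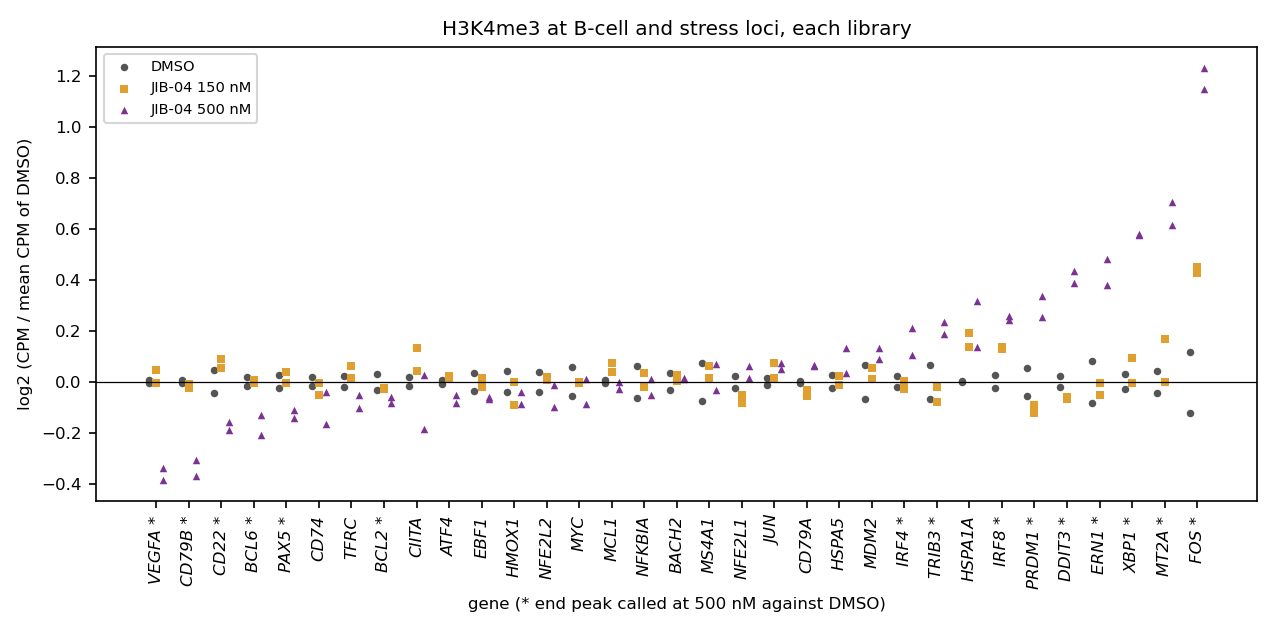
H3K4me3 at the end peaks of the B-cell and stress loci, as log2 of CPM over the mean of the DMSO libraries, 1 point per library, ordered by the change at 500 nM. Circles are DMSO, squares 150 nM and triangles 500 nM, and an asterisk marks a call. VEGFA, CD79B and CD22 lie at the low end and FOS, MT2A and XBP1 at the high end, with most loci between −0.2 and 0.2.

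The enzymes that write and erase the mark were also read. Of the Jumonji demethylases 9 of 23 were lower and 3 higher, with a median of −0.091. KDM4B, an H3K9 demethylase, fell from 86.5 and 85.6 CPM in DMSO to 48.6 and 44.7 CPM at 500 nM (log2 change −0.88, SE 0.052, edgeR adjusted p = 2.77e-21), and its H3K27ac fell by 0.83 (edgeR adjusted p = 0.000953). KDM6B, an H3K27 demethylase, fell from 180.0 and 188 to 142 and 135 CPM (log2 change −0.41, SE 0.036, edgeR adjusted p = 1.62e-14). Neither overlapped with its DMSO libraries. Of the KDM5 enzymes, KDM5A was not called at −0.080 (SE 0.035), KDM5B was higher at 0.18 and KDM5C lower at −0.16, the last 2 calls being lost with DESeq2 and when single libraries were left out (without 500 nM replicate 2 for both). DESeq2 called 3 of the 23 lower and none higher. Under loess offsets 4 were lower and 3 higher. Of the H3K4 methyltransferase complexes, which include the SET1 and MLL enzymes, 8 of 21 were lower and 1 higher, and 4 and none with DESeq2. Of the genes of H3K9 methylation and HP1, the mark and reader of heterochromatin, 6 of 26 were higher and 6 lower, and 9 and 3 under loess offsets.

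Housekeeping groups held few rises. Of 77 ribosomal protein genes 3 were higher and 7 lower, of 35 proteasome genes none and 7, of 44 DNA replication genes 1 and 6, and of 46 oxidative phosphorylation genes none and 14. Their medians lay between −0.060 and −0.023, and with total-count scaling that of the ribosomal genes was 0.011. Under loess offsets 17 ribosomal genes were higher and 2 lower with a median of 0.039, 4 and 4 proteasome genes with 0.0038, 4 and 4 replication genes with 0.011, and 5 and 1 oxidative phosphorylation genes with −0.0068. DESeq2 called 1 to 2 genes lower in each group. The clustered histone genes were lower at 28 of 60 genes, which share 35 peaks, and the zinc finger genes of chromosome 19 at 36 of 169, with DESeq2 counts of 10 and 3. The share for chromosome 19 is near the 21.8% of all genes. Under loess offsets 13 histone genes were lower and 3 higher, and 24 and 6 zinc finger genes of chromosome 19. Zinc finger genes of other chromosomes were higher at 17 of 187 and lower at 34, but at 24 and 16 under loess offsets and at 24 and 20 with total-count scaling. Both shares with TMM, are under those of all genes. Interferon-stimulated genes were higher in 5 of 29, near the share of all genes, and lower in 1, BST2. Of the 5, XAF1 had a DMSO library under the filter, and RSAD2 and CMPK2 share a peak that rose from 28.3 and 28.5 to 55.2 and 54.9 CPM.

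Several lists of genes foreign to B cells held more rises than falls. HOX genes were higher in 9 of 14 with a tested end peak (12 peaks, median 0.34) and lower in none. Neuronal genes were higher in 8 of 13 and lower in 2 (0.38), and fibroblast and epithelial markers in 6 and 1 of 8 (0.60). By start peaks 3 of 7, 3 of 8 and 3 of 3 were higher, with medians of 0.090, 0.13 and 0.69. The end peaks had low median levels, 32.7, 24.8 and 16.8 CPM. In the 2 lowest groups of start-site peaks, with medians of 10.3 and 48.4 CPM, 50.5% and 19.5% were higher. Most members of these lists had no tested peak: 25 of 39, 19 of 32 and 9 of 17. In 1, 2 and 2 of those tested a DMSO library was under the filter, so the counts describe the peaks that passed and not the lists. DESeq2 called 5, 3 and 4 genes higher in these lists. Germline genes, expressed in testis, were higher in 3 of 10 and lower in 1. FN1, fibronectin, held 26.5 and 22.7 CPM in DMSO and 40.5 and 39.4 CPM at 500 nM, and VIM, vimentin, 48.3 and 49.4 CPM in DMSO against 61.5 and 62.0 at 500 nM. The fibroblast and epithelial markers summed to 205 and 197 CPM in DMSO and 244 and 248 at 500 nM, with KRT19 and CDH1 without a tested peak. Of the T-cell and NK-cell markers 2 of 8 were higher and 1 lower, and of the myeloid and erythroid markers 1 of 3 was higher. The T-cell and NK-cell markers summed to 132 and 133 CPM in DMSO and 129 and 126 at 500 nM, and the myeloid and erythroid ones to 116 and 113, then 121 and 115. Whether another cell type had a part in these values was not tested.

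**Figure D5:**
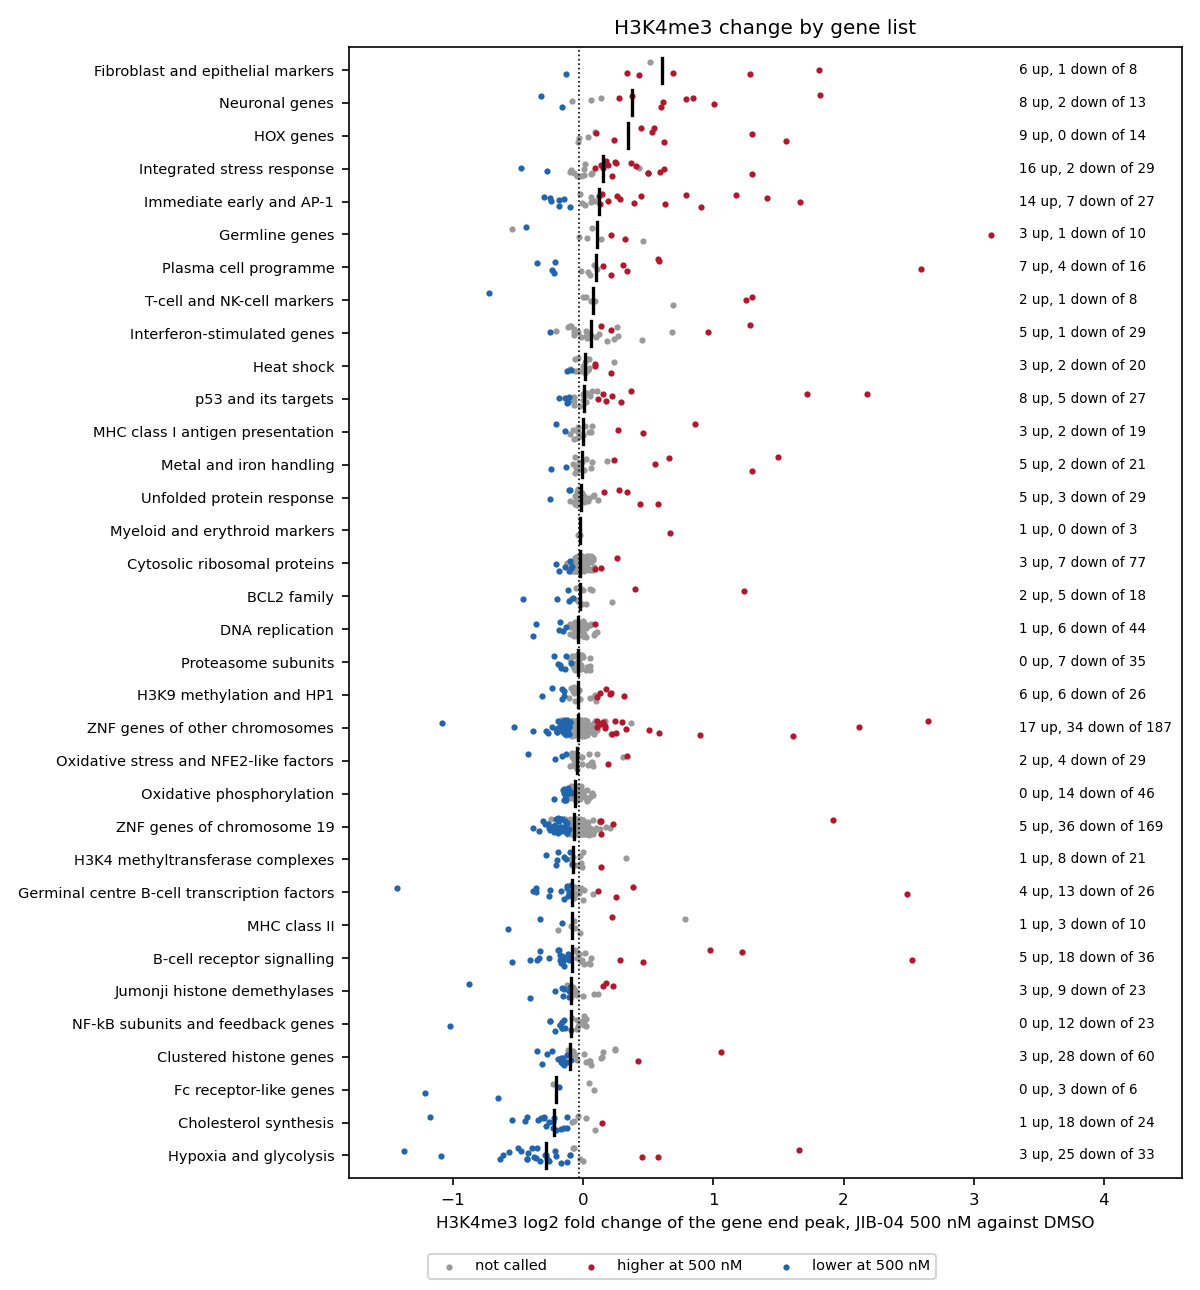
H3K4me3 log2 fold change of gene end peaks at 500 nM against DMSO for 34 gene lists, ordered by median. Each point is a distinct peak, red higher, blue lower and grey not called, the black bar is the list's median over genes, the dotted line the median of all genes (−0.029), and the text counts genes. Hypoxia and glycolysis, cholesterol synthesis and Fc receptor-like genes stand at the low end.

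Called peaks of 1 direction lay side by side at some loci, which are given as a description. On chr7:815356-1067283, from SUN1 to GPR146, 9 consecutive tested peaks were lower, by log2 changes from −3.30 to −0.16. On chr15:40873005-40956625, which holds RHOV, VPS18, DLL4 and CHAC1, 7 consecutive peaks were higher, from 0.14 to 1.42. On chr1:212566672-212701347, around ATF3 and BATF3, 6 were higher, from 0.56 to 3.37. On chr6:37005259-37173382, around FGD2 and PIM1, and chr22:39418367-39460560, around TAB1 and MGAT3, 6 were lower in each. PIM1 is a kinase gene of activated B cells. At genes whose start peak was higher, 32.5% of their 548 other peaks were higher and 13.1% lower. At genes whose start peak was lower, 11.4% of 757 other peaks were higher and 23.5% lower. Where the start peak was not called, 16.4% of 1410 other peaks were higher and 20.0% lower.

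By chromosome the share of tested peaks called higher ran from 10.3% on X to 25.2% on chromosome 3, and the share called lower from 12.6% on chromosome 13 to 26.7% on chromosome 4.

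H3K27ac at the same places held few calls. A tested H3K27ac peak overlapped 48.5% of the higher, 96.5% of the lower and 83.2% of the other H3K4me3 peaks. Its median log2 change was 0.12, −0.0071 and 0.054 there. At higher H3K4me3 peaks H3K27ac was called higher at 54 and lower at 1, and at lower H3K4me3 peaks it was called higher at 9 and lower at 39. At H3K4me3 peaks not called, H3K27ac was called higher at 45 and lower at 16. Most of the changed H3K4me3 peaks therefore carried no H3K27ac call at this depth. On simulated H3K27ac counts only 3.5% of log2 changes of 0.5 and 45% of changes of 1 were recovered. A missing H3K27ac call thus does not show that the mark stayed the same. The number of H3K27ac calls over all peaks, 499, went from 116 to 2105 among the other fits, so the H3K27ac calls given above for single genes are less firm than those of H3K4me3.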

How the data were processed

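The deposited tables hold read counts per consensus peak, 1 column per library, not normalized. Counting by the authors used featureCounts 2.0.1, per the file headers, ignoring strand and with a fraction of 0.2 of a read inside the peak. Per the submitters' processing notes, Trim Galore 0.6.7, BWA 0.7.17-r1188, Picard 2.27.4, MACS2 2.2.7.1, deepTools 3.5.1, edgeR 3.42.4 and GRCh38 were used, with no role or order. How the consensus was made is not given in the sources used here, nor is whether a count is a 50 bp read or a fragment. Groups come from the sample titles.

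All 6 H3K4me3 libraries entered 1 fit in edgeR 4.0.16 (R 4.3.3), with filterByExpr, TMM and the quasi-likelihood functions glmQLFit and glmQLFTest, the adjusted p (Benjamini-Hochberg, all tested peaks) being held to 0.05. The H3K27ac counts were fitted likewise. Standard errors come from the F statistic. Consensus starts were raised by 1. A gene's end peak is the tested peak of highest mean level within 1000 bp of either end in RefSeq. The 150 nM pair differed by less than counting noise (0.920), as did a pair of different treatments (0.948), and was kept as 2 samples. On simulated counts with 200 changed peaks among 20402, 64.5% of changes of 0.5 on the log2 scale and 80% of changes of 1 were recovered, with 9 and 10 false calls. The changed peaks were far fewer than those called in the data, balanced in direction and drawn without regard to level. False calls under the data's own pattern of change were thus not measured. Alternatives were the scaling, the filter, a replicate block, DESeq2 1.42.0, the libraries in the fit, and the gene assignment.

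Genes were named by rule: the 12 largest called rises and falls among protein-coding genes above the median level with groups that do not overlap, 37 loci, and the 2 largest called changes each way in each of 34 lists. Other list members were named for their role after their values were seen. A few genes that the rule names are not reported here, though list counts include them. The lists and members were chosen with earlier results of these data known. Reads carry no molecular identifiers, so counts are not independent molecules. The libraries of input, H3K9me2 and H3K9me3 were not analysed here.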

Additional observations from a re-analysis of the deposited data

Results flagged for a closer look

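Outside the autosomes and X, 119 tested H3K4me3 peaks lay on contigs not placed on a chromosome; of these edgeR called 35 higher at 500 nM and 2 lower against DMSO, a share of 29.4% higher against 20.7% of all tested peaks. Their summed level was 1031 and 1078 CPM at 500 nM against 703 and 724 CPM in DMSO, with 681 and 751 CPM at the lower dose. They are listed because they carry a signal above DMSO outside the chromosomes described above.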

How the results depend on the processing

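No peak called in 2 fits changed direction in any of the 14 refits. For 500 nM against DMSO, the 7980 called H3K4me3 peaks became 3398 with DESeq2 (1908 higher and 1490 lower, 3395 of them shared) and 1922 at a log2 change of at least 1 (1524 and 398). The genes became 2926 with DESeq2 (1665 and 1261), and lower genes 2183 under loess offsets on abundance and 2501 with total-count scaling. Leaving out each library gave 6170 to 7731 peaks. With an arm of 1 library, its spread is taken to equal that of the others. H3K27ac, the less deeply counted mark, was unstable. Its 499 calls (374 higher, 125 lower) became 116 with DESeq2 (91 and 25), 317 at a mean count of at least 50 (211 higher) and 2105 with only the 4 libraries of the contrast (1222 and 883). Leaving out any of its 6 libraries moved the count by over 1.5 times, from 117 without DMSO replicate 2 to 1900 without 150 nM replicate 1 (101 to 1201 higher, 16 to 699 lower).

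Labels tie the replicate numbers to no batch. Deviations of same-numbered libraries correlated at 0.092 to 0.17 for H3K4me3 and 0.073 to 0.26 for H3K27ac, over only 2 numbers, so the numbers were not taken as pairs. With the replicate block 8219 H3K4me3 peaks were called, 7968 of them shared, and 1150 H3K27ac peaks (765 and 385). Over 220 values of genes and peaks, 166 refits lost a call and 28 gained one. Under loess offsets, BCL2 went to 0.023 and MYC to 0.076, the reverse of their direction. The cause was not tested. Peaks near the low-count filter are limited by depth.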
